A study of Homo sapiens with 3 samples.

Results

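The genes described here serve protein folding, entry and disposal in the endoplasmic reticulum (ER): ER chaperones and disulfide-forming enzymes, the sensors of the unfolded protein response, the machinery of ER-associated degradation, and the translocon. They were chosen by name, as a list of 41 of the 19225 genes in the table, with no use of measured values, although earlier results of these data were known when the list was drawn up. For each gene the transcript with the most reads over the 3 libraries was used. RNA was measured in 5637 cells, an established human bladder cancer line labelled wild type and grown in RPMI 1640 with fetal bovine serum. The knockdown cells, 2 libraries called siCDCA3-1 and siCDCA3-2, had been transfected with siRNA against CDCA3, a cell division cycle associated gene that takes part in mitotic entry. The control, 1 library called siNC, had been transfected with a control siRNA with the same reagent, Lipofectamine 3000, and the study asked which genes lie downstream of CDCA3. Whether siCDCA3-1 and siCDCA3-2 were different siRNA sequences or repeat cultures is not stated.

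The ER lumen is where secreted and membrane proteins fold. The SEC61 channel with its TRAP partners (SSR1 to SSR4) lets them in, BiP (HSPA5) and other chaperones hold them, protein disulfide isomerases join their cysteines, and calnexin and calreticulin retain those with immature sugars. Proteins that fail are passed back to the cytosol through the SEL1L and SYVN1 complex and destroyed by the proteasome. When unfolded proteins build up, IRE1 (ERN1) splices XBP1 mRNA, ATF6 is cut to release a transcription factor, and PERK (EIF2AK3) phosphorylates eIF2 so that ATF4 is translated. The XBP1 and ATF6 branches are known for inducing chaperone and degradation genes, and the ATF4 branch for amino acid and redox genes.

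The gene-level counts were 40420563 in siCDCA3-1, 62389922 in siCDCA3-2 and 50912733 in siNC. The ER genes took between 0.889% and 0.950% of them in every library. CDCA3 itself had an RPKM (a read count per unit of transcript length and of a library total) of 0.574 in siCDCA3-1 and 1.40 in siCDCA3-2, against 5.52 in siNC. The library totals behind the deposited RPKM were 104153360 in siCDCA3-1, 160640877 in siCDCA3-2 and 130459616 in siNC. They exceed the gene-level counts, so every RPKM here is lower than those counts would give. Of 15 bladder epithelial markers, 5 were under an RPKM of 1 in every library (the uroplakins UPK1A, UPK1B, UPK2 and UPK3A, and KRT20), and the summed RPKM of all 15 was 2206 in siCDCA3-1, 1803 in siCDCA3-2 and 2627 in siNC. The 7 leukocyte and 4 endothelial markers were each under 1 in every library, and the 6 fibroblast markers summed to 10.0 in siCDCA3-1, 2.37 in siCDCA3-2 and 7.23 in siNC. Gene counts of the siCDCA3 libraries differed from each other far beyond sampling noise (chi-square over its degrees of freedom, 541.7), so they are not copies of 1 library. In bulk RNA, fewer cells expressing a gene and less of its RNA per cell cannot be told apart.

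The ER genes farthest below siNC in both siCDCA3 libraries were XBP1 and ERN1, the substrate and the enzyme of the IRE1 branch. HERPUD1, an ER membrane protein that recruits the degradation complex, and ERP29, a folding factor, followed them. Among the abundant chaperones, CALR and HSP90B1 were above siNC in both siCDCA3 libraries, and HSPA5 was above it in siCDCA3-1 and slightly below it in siCDCA3-2. A mean RPKM of 1 or more, needed to enter the tests, was reached by 40 of the 41 genes, all but DERL3. None of the 40 passed edgeR's quasi-likelihood test at a Benjamini-Hochberg adjusted p of 0.05 over 10153 genes, where 3 of all genes passed (0.0295%). DESeq2, with 10 calls among all genes (0.0985%; 0.0197% higher and 0.0788% lower), and limma, with 0, called none of the 40 either. At an unadjusted p under 0.05, XBP1 was the single ER gene under edgeR, DESeq2 and limma, against 134 of all genes under edgeR (1.32%) and 155 under DESeq2 (1.53%). The test takes the spread of the lone siNC library from that between the siCDCA3 libraries, and nothing in the labels states that those came from separate cultures. The p-values therefore rest on the spread between these libraries only. In edgeR that spread is mostly pooled over all genes, with 12 prior degrees of freedom beside 1 residual, and is not each gene's own.

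By direction alone, 11 of the 40 ER genes were above siNC in both siCDCA3 libraries (23.6% of all genes were), 12 were below it in both (27.8% of all genes), and 17 went opposite ways (48.5% of all genes). These shares lie near those of all genes. Both differences are taken from the same siNC library, so they are not independent. At 1.5-fold or more on log2(RPKM + 1), a scale that understates the change of low genes, 0 ER genes were higher in both libraries (0.611% of all genes) and 2 were lower in both, XBP1 and ERN1 (2.00% of all genes). The genes just short of that line were HERPUD1 and ERP29, whose smaller differences were -0.55 and -0.51. In siCDCA3-1 alone, 1 ER gene passed 1.5-fold upward (CALR; 3.92% of all genes did) and 3 downward (XBP1, ERN1 and DERL1; 7.22% of all genes). In siCDCA3-2 alone, 3 passed it upward (SDF2L1, SEC61G and SSR3; 9.60% of all genes) and 5 downward (XBP1, ERN1, HERPUD1, EDEM2 and ERP29; 9.63% of all genes). The median difference from siNC over the 40 genes was -0.08 in siCDCA3-1 and 0.06 in siCDCA3-2, where the medians of all genes were -0.07 and 0.05. Scaling by TMM in place of the deposited library totals brought the medians of all genes to -0.0013 for siCDCA3-1 and -0.0023 for siCDCA3-2. With it 7 ER genes, each with at least 1 library close to siNC, changed their class of direction: DNAJB11, CANX, PPIB, PDIA5, P4HB, ERP44 and SEC61B. The share of all genes that changed class was not counted, so whether 7 is many is not known. The TMM-scaled RPKM rest on gene-level counts, smaller than the deposited totals, so the added 1 weighs less in them. This alters the size of a difference but not its direction.

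**Figure D1:**
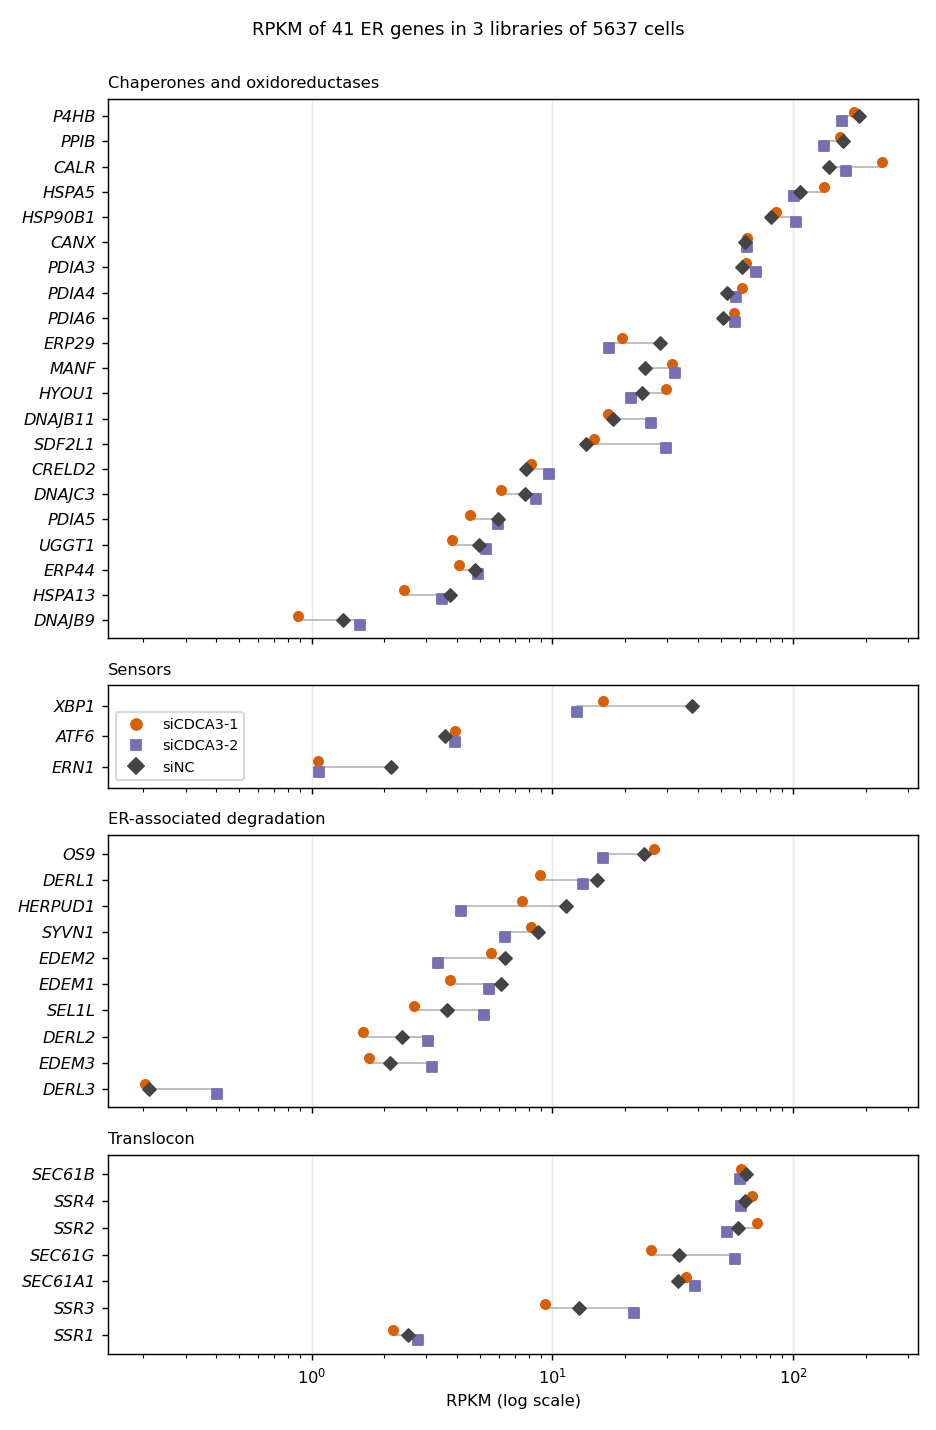
RPKM of the 41 ER genes on a log axis, 1 row per gene, in 4 panels by role and ordered by siNC level. Circles are siCDCA3-1, squares siCDCA3-2 and diamonds siNC, with 1 library each and so no error bars. XBP1, ERN1 and HERPUD1 have both siCDCA3 symbols left of the siNC diamond, while CANX, PDIA4 and PDIA6 have their 3 symbols close together.

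The promoters of these genes are known to share response elements, and 4 such elements were searched for in RefSeq's GRCh38.p14 promoter windows, which run from 250 bases before a start to 50 bases after it, with a window for each start listed for a gene. The ER stress response element (ERSE), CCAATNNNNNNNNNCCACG, is bound by NF-Y at CCAAT and by ATF6 at CCACG. ERSE-II, a compact form of it, is ATTGG and CCACG with any single base between them. The unfolded protein response element (UPRE), TGACGTGG, is bound by XBP1. The CARE element, TGATGCAA, is a C/EBP and ATF4 site. Both strands were searched. Windows were found for 38 of the 41 genes, and those for PDIA3, DERL1 and DERL3 were not. ERSE occurred in 7 of the 38 (18.4%), against 25 of the 27305 genes in the promoter table (0.0916%). ERSE-II occurred in 3 (7.89%, against 0.0696% of all genes), UPRE in 3, namely HYOU1, SSR3 and SSR4 (7.89%, against 0.927%), and CARE in HERPUD1 alone (2.63%, against 1.08%). In HYOU1 the UPRE match overlaps the ERSE-II match farther from the start. Such elements were known in promoters of these genes before the search, so the higher shares are no independent result.

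The following stretches hold the matches of 10 ER genes, 7 with ERSE and 3 with its compact form ERSE-II. These genes differed in how their RNA compared with siNC, and whether the elements bear on that was not tested. Each is written on the gene's own strand and lies before a start that RefSeq lists. For CANX and PDIA6 that is an alternative start inside the gene's full extent, and for the other 8 genes it is the outermost start. The CANX match also falls in windows of neighbouring starts, in which it spans -189 to -171 and, across the start, -9 to 10. Capitals mark the fixed letters of a match, in either orientation. In HERPUD1 the capitals nearer the 5′ end are CARE read on the opposite strand, and in HYOU1 those nearest the 5′ end are UPRE with the overlapping ERSE-II.
XBP1, chr22:28800583-28800641, minus strand: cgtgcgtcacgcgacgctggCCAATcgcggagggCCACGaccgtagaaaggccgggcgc
HERPUD1, chr16:56931946-56932055, plus strand: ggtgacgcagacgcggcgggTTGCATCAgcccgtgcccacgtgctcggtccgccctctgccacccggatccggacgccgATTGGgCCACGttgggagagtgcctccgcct
HSPA5, chr9:125241371-125241429, minus strand: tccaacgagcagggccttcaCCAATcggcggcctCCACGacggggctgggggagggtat
HSP90B1, chr12:103930196-103930359, plus strand: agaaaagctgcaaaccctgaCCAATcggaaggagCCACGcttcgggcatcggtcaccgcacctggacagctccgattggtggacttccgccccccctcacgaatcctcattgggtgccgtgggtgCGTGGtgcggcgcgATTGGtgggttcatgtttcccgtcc
CALR, chr19:12938364-12938422, plus strand: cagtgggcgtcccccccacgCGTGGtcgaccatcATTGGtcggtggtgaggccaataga
CANX, chr5:179698758-179698816, plus strand: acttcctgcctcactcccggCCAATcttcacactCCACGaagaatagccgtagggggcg
CRELD2, chr22:49918534-49918592, plus strand: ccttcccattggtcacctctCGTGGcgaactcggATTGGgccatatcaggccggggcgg
PDIA6, chr2:10812833-10812891, minus strand: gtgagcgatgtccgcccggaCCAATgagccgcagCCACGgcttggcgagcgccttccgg
SDF2L1, chr22:21642094-21642144, plus strand: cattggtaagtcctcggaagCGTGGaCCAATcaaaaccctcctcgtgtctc
HYOU1, chr11:119057254-119057413, minus strand: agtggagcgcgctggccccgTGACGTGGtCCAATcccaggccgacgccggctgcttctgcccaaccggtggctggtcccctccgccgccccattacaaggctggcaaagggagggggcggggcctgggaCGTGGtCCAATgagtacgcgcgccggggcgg

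Of these 10 genes, XBP1 and HERPUD1 were below siNC in both siCDCA3 libraries, HSPA5 and HYOU1 went opposite ways, and the other 6 were above siNC in both. Of all genes, 27.8% were below it in both, 48.5% went opposite ways and 23.6% were above it in both. Among the 30 tested ER genes with neither match found, 10 were below siNC in both, 15 went opposite ways and 5 were above it in both. Whether the elements bear on these directions was not tested. Without XBP1 and HERPUD1, the log2 differences of the other 8 of the 10 genes ran from 0.03 to 0.72 in siCDCA3-1 and from -0.15 to 1.04 in siCDCA3-2. XBP1 and HERPUD1 were the lowest of the 10 in both libraries, so that range follows from leaving them out and is no separate result. CANX, among the 6, was below siNC in siCDCA3-2 after TMM scaling. A match is a description of letters, and binding to these windows was not measured.

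**Figure D2:**
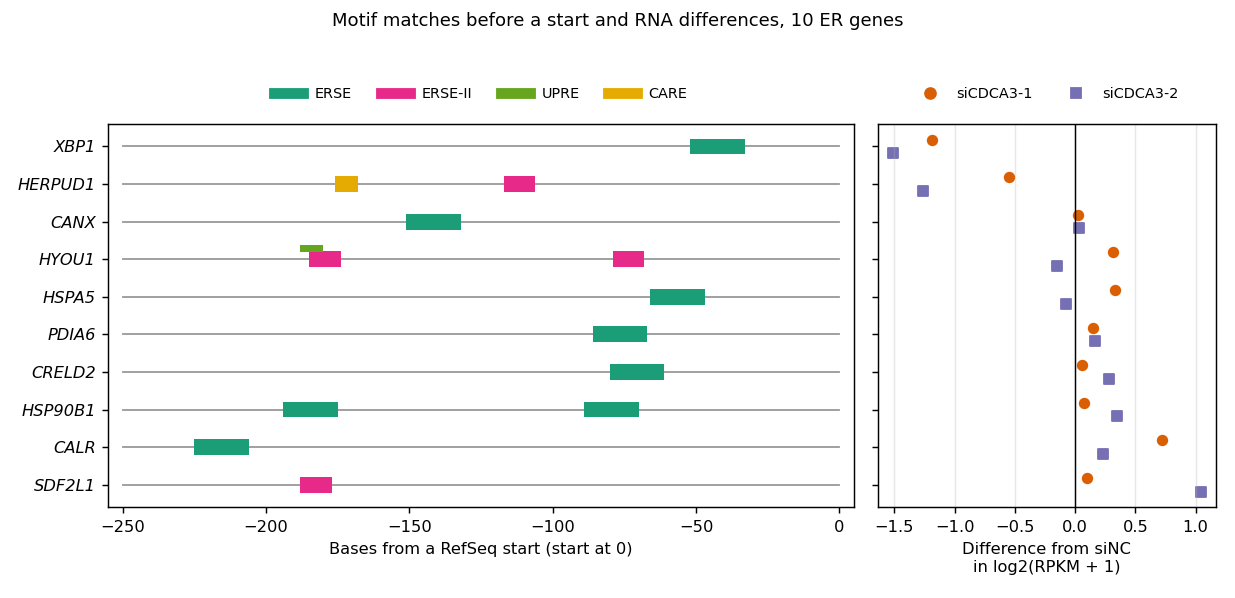
Left, positions of ERSE, ERSE-II, UPRE and CARE matches in the 250 bases before a RefSeq start of 10 ER genes, in bases from that start, which for CANX and PDIA6 is an alternative start inside the gene. Right, the difference from siNC in log2(RPKM + 1) for siCDCA3-1 (circles) and siCDCA3-2 (squares), 1 library each. Genes are ordered by the mean of these differences, so XBP1 and HERPUD1, the lowest, are at the top. Both carry an ERSE or ERSE-II match and lie left of 0 in both libraries. The other 8 genes, which also carry a match, lie between -0.15 and 1.04.

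Among the sensors, XBP1 RNA was the farthest from siNC. XBP1 encodes the transcription factor made after IRE1 removes a short intron from its mRNA, and it lies on GRCh38 chromosome 22 from 28794560 to 28800569. Its RPKM was 16.2 in siCDCA3-1 and 12.7 in siCDCA3-2, against 38.0 in siNC, from 3063 reads in siCDCA3-1, 3711 in siCDCA3-2 and 9031 in siNC. Both siCDCA3 values lay well under siNC, at 42.5% of its level in siCDCA3-1 (95% exact binomial interval 40.8% to 44.3%) and 33.4% in siCDCA3-2 (32.1% to 34.7%). Such intervals cover counting error only. By edgeR, XBP1 had a log2 fold change of -1.38 ± 0.48 (SE), an unadjusted p of 0.01246 and an adjusted p of 0.9997. The table lists 2 XBP1 records, the unspliced NM_005080.3 of 1820 bases and the spliced NM_001079539.1 of 1794 bases, and most reads were counted for both. The shorter record had 85.5% of the reads of the longer record in siCDCA3-1 and 89.4% in siCDCA3-2, against 89.2% in siNC. Reads common to both records cannot be assigned, so these counts do not give the level of splicing. A pseudogene is named after XBP1, and how reads common to both were counted is not given.

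ERN1, which encodes the kinase and RNase IRE1 that cuts XBP1 mRNA, lies on chromosome 17 from 64039142 to 64130144 and was expressed at a low level. Its RPKM was 1.06 in siCDCA3-1 and 1.07 in siCDCA3-2, against 2.14 in siNC, from 444 reads in siCDCA3-1, 690 in siCDCA3-2 and 1119 in siNC. The siCDCA3 libraries were close to each other, at 49.7% (44.4% to 55.5%) of the siNC level in siCDCA3-1 and 50.1% (45.5% to 55.1%) in siCDCA3-2. By edgeR the log2 fold change of ERN1 was -0.99 ± 0.60 (SE; adjusted p = 0.9997). ATF6, the membrane-bound sensor that is released by proteolysis, had an RPKM of 3.92 in siCDCA3-1 and 3.93 in siCDCA3-2, against 3.58 in siNC. The ratio of XBP1 to ATF6 within a library, which no library scaling can move, was 4.12 in siCDCA3-1 and 3.23 in siCDCA3-2, against 10.6 in siNC. The ratio of ERN1 to ATF6 was 0.271 in siCDCA3-1 and 0.273 in siCDCA3-2, against 0.598 in siNC.

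Of the 9 degradation genes tested, 8 were below siNC in siCDCA3-1 (58.6% of all genes) and 6 in siCDCA3-2 (45.6% of all genes). In both libraries 5 were lower and 0 higher (27.8% and 23.6% of all genes). The median of the 9 was -0.35 in siCDCA3-1 and -0.17 in siCDCA3-2 on the log2 scale, where all genes had -0.07 and 0.05. HERPUD1, on chromosome 16 from 56932142 to 56944864, had an RPKM of 7.48 in siCDCA3-1 and 4.16 in siCDCA3-2, against 11.4 in siNC. That was 65.7% (61.7% to 70.0%) of the siNC level in siCDCA3-1 and 36.5% (34.2% to 39.0%) in siCDCA3-2. Its log2 difference in siCDCA3-1, -0.55 on log2(RPKM + 1), missed the 1.5-fold threshold of 0.585, and by edgeR the log2 fold change was -0.94 ± 0.55 (SE; adjusted p = 0.9997). All 3 listed HERPUD1 transcripts had lower RPKM in both siCDCA3 libraries. Their counts are alike, as if the same reads were counted for each, so this is no separate support.

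The ubiquitin ligase at the centre of the pathway and its partner differed in their pattern. SYVN1, the ligase HRD1, had an RPKM of 8.15 in siCDCA3-1 and 6.34 in siCDCA3-2, against 8.69 in siNC. SEL1L, its adaptor, had 2.66 in siCDCA3-1 and 5.22 in siCDCA3-2, against 3.65 in siNC, so that the siCDCA3 libraries lay on opposite sides of the control. The EDEM proteins, which trim mannose from misfolded glycoproteins, were also split. EDEM1 had 3.76 in siCDCA3-1 and 5.44 in siCDCA3-2, against 6.09 in siNC, and EDEM2 had 5.54 in siCDCA3-1 and 3.34 in siCDCA3-2, against 6.37 in siNC. EDEM3 had 1.73 in siCDCA3-1 and 3.17 in siCDCA3-2, against 2.11 in siNC. EDEM1 was the lower of the siCDCA3 pair in siCDCA3-1, EDEM2 in siCDCA3-2, and EDEM3 straddled siNC.

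The derlins, membrane proteins of the exit channel, gave a similar picture. DERL1 had an RPKM of 8.90 in siCDCA3-1 and 13.4 in siCDCA3-2, against 15.2 in siNC, and was 58.4% of siNC (55.9% to 60.9%) in siCDCA3-1. DERL2 had 1.64 in siCDCA3-1 and 3.06 in siCDCA3-2, against 2.36 in siNC. DERL3 was barely detected, with 68 reads in siCDCA3-1 and 209 in siCDCA3-2, against 88 in siNC, and RPKM of 0.204 in siCDCA3-1 and 0.407 in siCDCA3-2, against 0.211 in siNC. OS9, a lectin that delivers glycoproteins to SEL1L, had 26.3 in siCDCA3-1 and 16.2 in siCDCA3-2, against 23.95 in siNC. Of these, DERL1 was below siNC in both libraries, and DERL2 and OS9 straddled it in opposite ways.

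**Figure D3:**
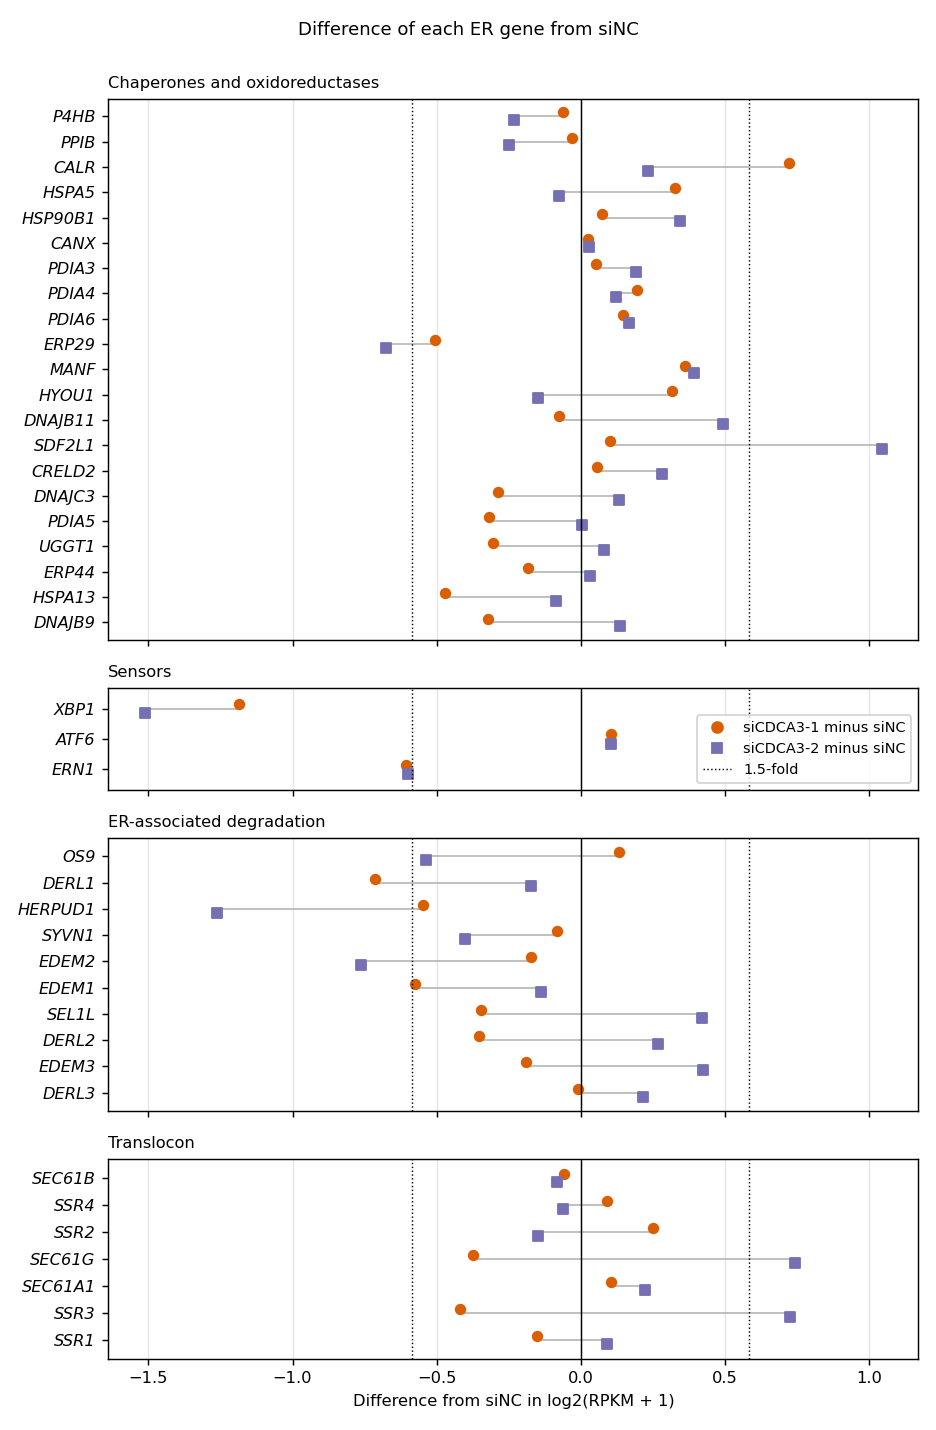
Difference of each of the 41 ER genes from siNC in log2(RPKM + 1), in the same panels and order as the plot of levels. Circles are siCDCA3-1 minus siNC and squares siCDCA3-2 minus siNC, 1 library each, and dotted lines mark 1.5-fold. XBP1 and ERN1 have both symbols beyond the left dotted line, and no gene has both beyond the right line.

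The chaperone group of 21 genes includes 7 of the protein disulfide isomerase family. It centred close to siNC, its median log2 difference being 0.03 for siCDCA3-1 and 0.12 for siCDCA3-2. In both libraries 9 were higher (23.6% of all genes), 4 were lower (27.8% of all genes) and 8 went opposite ways. Its summed RPKM was 1174 in siCDCA3-1 and 1077 in siCDCA3-2, against 1046 in siNC. HSPA5, the ER Hsp70 known as BiP, had an RPKM of 133.7 in siCDCA3-1 and 101 in siCDCA3-2, against 106 in siNC. HSP90B1, the ER Hsp90 known as GRP94, had 85.0 in siCDCA3-1 and 102.8 in siCDCA3-2, against 80.8 in siNC. HSPA5 straddled siNC and HSP90B1 was above it in both. The ratio of XBP1 to HSPA5 within a library was 0.121 in siCDCA3-1 and 0.126 in siCDCA3-2, against 0.358 in siNC.

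CALR and SDF2L1 were the chaperone genes farthest above siNC, each in a different library. CALR, the calcium-binding lectin calreticulin on chromosome 19 from 12938609 to 12944489, had an RPKM of 232 in siCDCA3-1 and 165 in siCDCA3-2, against 140.5 in siNC. It was 165% of siNC in siCDCA3-1 (163% to 168%) and 118% in siCDCA3-2 (116% to 119%). By edgeR its log2 fold change was 0.53 ± 0.56 (SE; adjusted p = 0.9997). An annotated antisense gene overlaps CALR, and whether reads were counted by strand is not given. Calnexin (CANX), its membrane-bound relative, had 63.9 in siCDCA3-1 and 64.0 in siCDCA3-2, against 62.7 in siNC. The ratio of CALR to CANX was 3.64 in siCDCA3-1 and 2.58 in siCDCA3-2, against 2.24 in siNC.

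SDF2L1, a cofactor of BiP on chromosome 22 from 21642302 to 21644299, had an RPKM of 14.9 in siCDCA3-1 and 29.6 in siCDCA3-2, against 13.8 in siNC. Its level was 108% of siNC in siCDCA3-1 (100.2% to 116%) and 214% in siCDCA3-2 (202% to 227%), with an edgeR log2 fold change of 0.68 ± 0.56 (SE; adjusted p = 0.9997). DNAJB11, the J-protein with which SDF2L1 forms a complex, had 16.9 in siCDCA3-1 and 25.6 in siCDCA3-2, against 17.9 in siNC. Both genes were thus highest in siCDCA3-2.

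Of the other J-proteins and Hsp70 relatives, DNAJB9, which restrains IRE1 by bringing BiP to it, had an RPKM of 0.881 in siCDCA3-1 and 1.58 in siCDCA3-2, against 1.35 in siNC. DNAJC3, a BiP co-chaperone also called p58IPK, had 6.10 in siCDCA3-1 and 8.51 in siCDCA3-2, against 7.67 in siNC. HYOU1, the large Hsp70 relative that exchanges BiP's nucleotide, had 29.6 in siCDCA3-1 and 21.2 in siCDCA3-2, against 23.6 in siNC. HSPA13 had 2.43 in siCDCA3-1 and 3.48 in siCDCA3-2, against 3.76 in siNC. The J-proteins DNAJB9 and DNAJC3 were below siNC in siCDCA3-1 and above it in siCDCA3-2, and HYOU1 was the reverse.

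MANF, a secreted ER stress protein, had an RPKM of 31.5 in siCDCA3-1 and 32.2 in siCDCA3-2, against 24.3 in siNC, or 130% (123% to 136%) of its level in siCDCA3-1 and 133% (127% to 139%) in siCDCA3-2. CRELD2, a calcium-binding ER stress protein, had 8.12 in siCDCA3-1 and 9.65 in siCDCA3-2, against 7.77 in siNC. UGGT1, which re-glucosylates misfolded glycoproteins, had 3.81 in siCDCA3-1 and 5.29 in siCDCA3-2, against 4.94 in siNC. PPIB, the ER cyclophilin, had 156 in siCDCA3-1 and 134 in siCDCA3-2, against 159.9 in siNC, and was among the most abundant ER genes. Of these 4, MANF differed from siNC by a like amount in both siCDCA3 libraries.

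Of the protein disulfide isomerase family, PDIA3, PDIA4 and PDIA6 were above siNC in both libraries and P4HB and ERP29 below it. After TMM scaling, however, P4HB was above siNC in siCDCA3-1. P4HB, the founding protein disulfide isomerase, was the ER gene with the highest siNC level, with an RPKM of 179 in siCDCA3-1 and 159 in siCDCA3-2, against 187 in siNC. PDIA3, the partner of calnexin and calreticulin, had 63.7 in siCDCA3-1 and 70.1 in siCDCA3-2, against 61.3 in siNC, and PDIA6, which acts on IRE1 and other clients, had 56.6 in siCDCA3-1 and 57.5 in siCDCA3-2, against 51.1 in siNC. PDIA4 had 61.05 in siCDCA3-1 and 57.9 in siCDCA3-2, against 53.1 in siNC. PDIA5 had 4.55 in siCDCA3-1 and 5.93 in siCDCA3-2, against 5.92 in siNC, and ERP44, which retains assembly intermediates, had 4.07 in siCDCA3-1 and 4.89 in siCDCA3-2, against 4.76 in siNC.

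ERP29 was the gene of the protein disulfide isomerase family farthest below siNC in both siCDCA3 libraries. It has a thioredoxin fold without the paired active-site cysteines and helps secretory proteins fold. Its RPKM was 19.4 in siCDCA3-1 and 17.1 in siCDCA3-2, against 27.95 in siNC, with both siCDCA3 libraries below siNC. That was 69.4% (66.3% to 72.6%) of the siNC level in siCDCA3-1 and 61.3% (58.9% to 63.9%) in siCDCA3-2, for an edgeR log2 fold change of -0.60 ± 0.47 (SE; adjusted p = 0.9997). Both listed ERP29 transcripts were lower, but many reads seem to be counted for both, so this is no separate support. A gene annotated as antisense overlaps ERP29 and a pseudogene is named after it, and how reads common to them were counted is not given.

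The 7 translocon genes centred near siNC, their median log2 difference being -0.06 for siCDCA3-1 and 0.09 for siCDCA3-2. Of the 7, 5 went opposite ways (48.5% of all genes), SEC61A1 was higher in both, and SEC61B was lower in both except under TMM scaling. SEC61A1, the channel itself, had an RPKM of 35.9 in siCDCA3-1 and 39.0 in siCDCA3-2, against 33.2 in siNC. SEC61B, a small tail-anchored subunit, had 60.8 in siCDCA3-1 and 59.7 in siCDCA3-2, against 63.4 in siNC. SEC61G, the other small subunit, had 25.7 in siCDCA3-1 and 57.0 in siCDCA3-2, against 33.7 in siNC. The SEC61G values of the siCDCA3 libraries thus lay on either side of siNC, at 76.5% (71.2% to 82.1%) of its level in siCDCA3-1 and 169% (161% to 179%) in siCDCA3-2. The ratio of SEC61G to SEC61B was 0.423 in siCDCA3-1 and 0.954 in siCDCA3-2, against 0.531 in siNC. Both transcripts are short, 466 and 562 bases, and the length scaling of such short transcripts is imprecise, which bears on the ratio within a library. The same length was used for every library, so this scaling cancels in comparisons between libraries.

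The TRAP complex, which assists the entry of some signal sequences, showed the same split in SSR3. Its RPKM was 9.35 in siCDCA3-1 and 21.9 in siCDCA3-2, against 12.8 in siNC, or 72.9% (70.1% to 75.7%) of the siNC level in siCDCA3-1 and 171% (166% to 175%) in siCDCA3-2. SSR2 had 70.3 in siCDCA3-1 and 53.1 in siCDCA3-2, against 58.9 in siNC, and SSR4 had 67.4 in siCDCA3-1 and 60.6 in siCDCA3-2, against 63.2 in siNC. SSR1 had 2.17 in siCDCA3-1 and 2.76 in siCDCA3-2, against 2.52 in siNC. The ratio of SSR3 to SSR4 was 0.139 in siCDCA3-1 and 0.361 in siCDCA3-2, against 0.203 in siNC. SSR3 and SEC61G were also the ER genes with the largest gap between the siCDCA3 libraries. By 1.5-fold, 6 ER genes were higher in siCDCA3-2 than in siCDCA3-1 (SDF2L1, SEL1L, EDEM3, DERL2, SEC61G and SSR3; 17.6% of all genes) and 3 were lower (HERPUD1, EDEM2 and OS9; 10.5% of all genes).

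Genes of the same pathway outside the 41 were counted from lists written with earlier results known. Of 26 other folding genes, 6 were above siNC in both siCDCA3 libraries, 5 below it in both and 15 split, where all genes had 23.6%, 27.8% and 48.5%. Of 25 other degradation genes, 5 were higher, 7 lower and 13 opposite. Of 28 other entry and glycosylation genes, 3 were higher, 6 lower and 19 opposite. Of 13 other sensors and proteases, 3 were higher, 2 lower and 8 opposite. None of these 92 genes passed edgeR or DESeq2 (0.0295% and 0.0985% of all genes did). Nor did edgeR give any of them an unadjusted p under 0.05 (1.32% of all genes). With shares this small, an absence among 92 genes tells little. SRP68, a subunit of the signal recognition particle, was the single gene of these lists past 1.5-fold in both libraries (2.00% of all genes were that much lower), with an RPKM of 22.1 in siCDCA3-1 and 17.8 in siCDCA3-2, against 33.98 in siNC.

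The genes of the ATF4 branch were mostly lower, and whether PERK or the ER had a part in this was not tested. Of the 25 tested, 24 were below siNC in both libraries (27.8% of all genes) and 0 above it, and the median log2 difference was -1.80 for siCDCA3-1 and -1.59 for siCDCA3-2. This list holds genes known to be low here when it was written, so it is no independent evidence. At 1.5-fold, 21 were lower in both (2.00% of all genes). By edgeR, 3 of the 25 were called, ASNS, CHAC1 and NUPR1 (0.0295% of all genes), and these are its only calls over all genes. DESeq2 called 7, each lower (0.0788% of all genes were called lower). Ordered by the smaller of their changes in the siCDCA3 libraries, the leading 4 were ASNS, which makes asparagine, CHAC1, which degrades glutathione, CBS, of cysteine synthesis, and PCK2, the mitochondrial phosphoenolpyruvate carboxykinase. ASNS had an RPKM of 1.02 in siCDCA3-1 and 1.40 in siCDCA3-2, against 40.5 in siNC. CHAC1 had 1.04 in siCDCA3-1 and 0.434 in siCDCA3-2, against 15.7 in siNC. CBS had 3.35 in siCDCA3-1 and 1.79 in siCDCA3-2, against 23.3 in siNC, and may share reads with its near-identical copy CBSL. PCK2 had 5.50 in siCDCA3-1 and 4.59 in siCDCA3-2, against 34.1 in siNC.

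**Figure D4:**
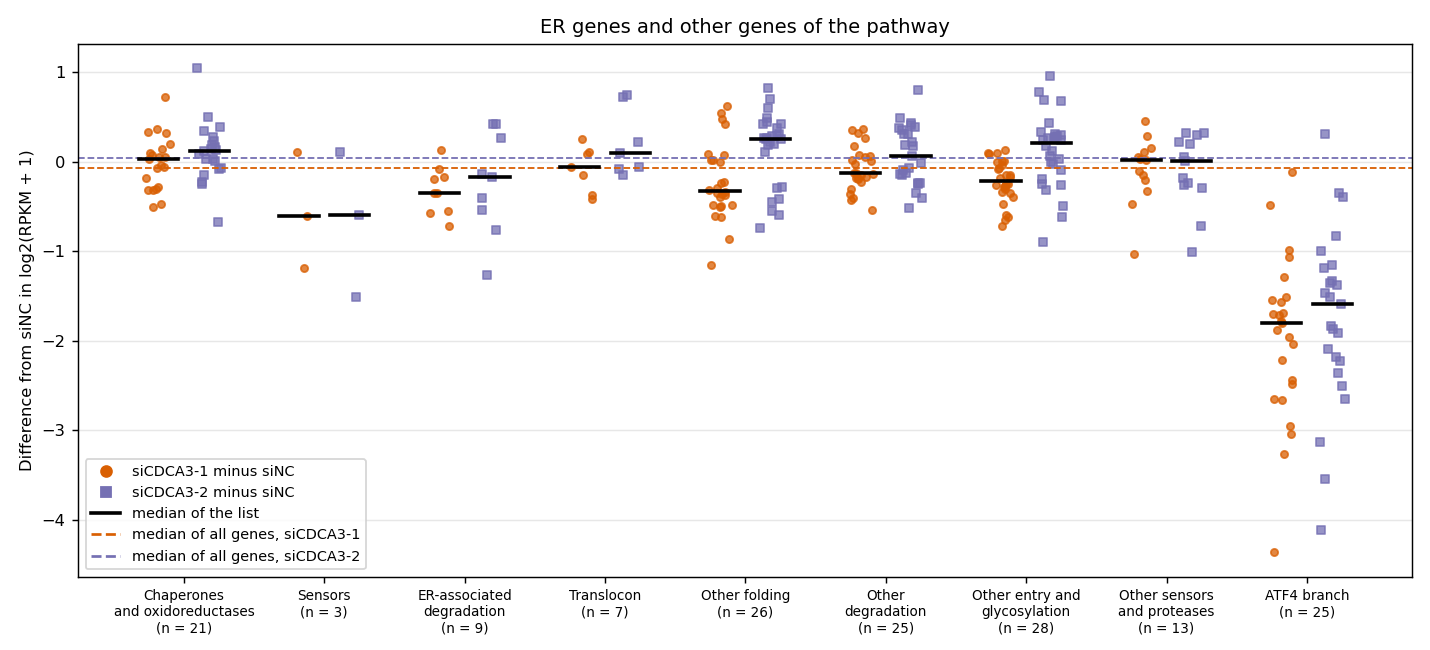
Difference from siNC in log2(RPKM + 1) for every tested gene of the 4 groups of ER genes and of 5 further lists of the pathway. Circles are siCDCA3-1 and squares siCDCA3-2, 1 library each, black bars are list medians, and dashed lines the medians of all 10153 genes (-0.07 and 0.05). The ATF4 branch lies far below 0 in both libraries, with medians of -1.80 and -1.59, while the chaperone medians are 0.03 and 0.12.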

How the data were processed

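RNA of 5637 cells was sequenced after removal of ribosomal RNA, in 2 siCDCA3 libraries and 1 siNC library, grouped by their labels. Per the submitters' processing notes, Trimmomatic 0.36, FastQC, HISAT2 and HTSeq were used, and the builds hg38 and mm10 are listed with no role. Per the file headers, the table holds a read count and an RPKM for each of 45006 RefSeq transcripts. In the deposited values, the RPKM equals the count over the length and 1 total per library. No source used here says whether reads were counted by strand. GENCODE 29 exons of another gene overlap 23 of the 41 ER genes, and 5 have a pseudogene named after them. XBP1 has such a pseudogene, and HERPUD1 and ERN1 have neither.

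Transcripts of a gene have nearly equal deposited counts in many cases, as if reads were counted for each, so the transcript with the most reads stood for its gene. Symbols that read as dates were restored by accession in 102 of 103 rows. Of the accessions, 98.6% matched RefSeq (GRCh38.p14), which supplied coordinates and promoter windows.

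Counts were tested with edgeR 4.0.16 (R 4.3.3) by a two-sided quasi-likelihood test with TMM scaling, siCDCA3 against siNC, over the 10153 genes whose mean RPKM was 1 or more, adjusted by Benjamini-Hochberg at 0.05. Standard errors were derived from the log2 fold change and its F value. The common dispersion was 0.126. The fit has a single residual degree of freedom and 12 prior degrees of freedom (median over genes). Sizes used log2(RPKM + 1), and counting intervals are exact 95% binomial intervals of the read ratio. The alternatives were DESeq2 1.42.0, limma 3.58.1, median-of-ratios scaling, TMM-scaled RPKM, pseudocounts of 0.1 and 0.5, no filter, a mean RPKM of at least 5, the longest transcript and each siCDCA3 library left out.

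The ER genes and all lists were chosen with earlier results of these data known. All 41 ER genes could be named; of the further lists, at most 4 genes each past 1.5-fold in both libraries, in order of the smaller change. NUPR1 and the marker genes were named outside that rule.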

Additional observations from a re-analysis of the deposited data

How the results depend on the processing

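No ER gene was called by edgeR, DESeq2 or limma, or by edgeR with median-of-ratios scaling, no filter, a mean RPKM of at least 5 or the longest transcript. Over all genes, where edgeR made 3 calls, there were 10 with DESeq2, 0 with limma, 22 with no filter and 0 at a mean RPKM of at least 5. Of 230 log2 fold changes of the 40 ER genes under these alternatives, 228 kept their direction and their side of the threshold. With no filter, the log2 fold changes of CANX (-0.0184) and SSR4 (-0.023) turned negative. Keeping the side of the threshold could hardly fail, since the lowest adjusted p was 0.9909 (XBP1, edgeR with no filter). The direction is that of a fold change pooled over both siCDCA3 libraries, and every alternative reuses the same 3 libraries. For 17 of the 40 genes the siCDCA3 libraries went opposite ways, so the count of 228 does not show that directions are stable between libraries. The 2 ER genes at least 1.5-fold lower in both libraries became 1 at a mean RPKM of at least 5, which removes ERN1, and 3 with a pseudocount of 0.1, which adds HERPUD1.

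Leaving out each siCDCA3 library in turn leaves 1 library against 1 and no test. Counted in the remaining library alone, 16 to 23 ER genes were above siNC and 17 to 24 below it, 1 to 3 were at least 1.5-fold higher and 3 to 5 at least 1.5-fold lower. The median differences of the ER genes moved by less than the spread between the siCDCA3 libraries under every pseudocount, filter, scaling and transcript tried, and at a mean RPKM of at least 5 the siCDCA3-2 median was -0.03. No paired analysis was possible because siNC has a single library. With 1 siNC library and a single residual degree of freedom, the adjusted p of 0.9997 leaves large differences possible.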
